A study of Arabidopsis thaliana with 4 samples.

Results

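The genes for camalexin and indole glucosinolate synthesis were followed in uninfected leaves of *Arabidopsis thaliana*. They were chosen by name: *CYP79B2* and *CYP79B3* (entry enzymes), *CYP71A13* and *PAD3* (camalexin branch), *CYP83B1*, *SUR1* and *CYP81F2* (indole glucosinolate branch), and *MYB34*, *MYB51* and *MYB122* (regulators), which makes 10 of the 32633 loci in each deposited table. Leaf RNA was sequenced from wild-type Columbia-0 (WT) and from the *ldl1 ldl2* double mutant, with 2 biological replicates of each genotype, 4 libraries in all. The double mutant carries T-DNA insertions in *LDL1* and *LDL2*, which encode homologs of the histone H3 lysine demethylase LSD1, and was made by crossing *ldl1-1* with *ldl2-1* in the Col-0 background. All plants were 3 weeks old and grew in 12 h of light and 12 h of dark, at 21 ± 1 °C by the sample records. The methods of the study state a slightly higher temperature. No library came from infected or treated leaves. How many plants went into a library is not given in the sources used here. Both genotypes carry replicate numbers 1 and 2, and the mutant was compared with WT within each number as well as over all libraries.

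Camalexin, an indole phytoalexin made mostly after infection, and the indole glucosinolates, sulfur-rich compounds stored in healthy leaves and broken down on attack, start from the same precursor. *CYP79B2* and *CYP79B3* convert tryptophan to indole-3-acetaldoxime. *CYP83B1* and the C-S lyase *SUR1* pass this aldoxime toward the indole glucosinolates, whereas *CYP71A13* dehydrates it to indole-3-acetonitrile on the way to camalexin, which PAD3 completes. The related MYB factors MYB34, MYB51 and MYB122, activate the indole glucosinolate genes.

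Levels are FPKM, the fragments mapped to a gene scaled by the length of its model and by the mapped fragments of the library, so that they can be compared between genes. The read depth behind a value is unknown, and a gene listed at 0 may be absent or may be a failed estimate. *LDL1* was at 4.37 and 5.001 FPKM in WT and at 4.44 and 4.09 in the mutant, and *LDL2* was at 1.04 and 0.944 in WT against 0.281 and 0.673 in the mutant. Reads outside an insertion can still be counted, so these levels do not check the labels. All 4 leaf markers were abundant in every library, at a summed 39972 to 49533 FPKM. Root markers other than *PYK10* were at or near 0, with a list sum of 0.161 to 6.17 FPKM. The 5 flower markers summed to 0.602 FPKM in WT replicate 1, 14.1 in WT replicate 2, 2.78 in *ldl1 ldl2* replicate 1 and 4.89 in *ldl1 ldl2* replicate 2. The clock gene *TOC1* was at 2.94 and 3.48 FPKM in the replicate 1 libraries and at 109 and 88.03 FPKM in the replicate 2 libraries, and *CCA1* was at 50.4 and 16.6 against 3.85 and 2.44 FPKM. The part of these differences between libraries in the values given next was not tested. In leaf RNA, fewer cells expressing a gene and less RNA per cell cannot be told apart.

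The sequences just upstream of 5 of these genes are shown because they hold the motif matches among the tested genes whose genotypes did not overlap (*MYB51*, *CYP81F2* and *SUR1*) or because they belong to the related entry enzymes *CYP79B2* and *CYP79B3*. Each is the 250 bases before the annotated gene start, 5′ to 3′ on the gene's strand, from RefSeq TAIR10.1, and none overlaps an annotated gene. The windows lie at chr1:6389149-6389398 (plus strand, *MYB51*), chr5:23187590-23187839 (plus, *CYP81F2*) and chr2:8880441-8880690 (minus, *SUR1*). Capitals mark matches on either strand to the core of the W-box bound by WRKY factors (TTGAC, which reads GTCAA on the other strand), to the G-box bound by basic helix-loop-helix factors such as MYC2 (CACGTG), and to an AC element bound by R2R3 MYB factors (ACCNAAC, which reads GTTNGGT on the other strand).
MYB51: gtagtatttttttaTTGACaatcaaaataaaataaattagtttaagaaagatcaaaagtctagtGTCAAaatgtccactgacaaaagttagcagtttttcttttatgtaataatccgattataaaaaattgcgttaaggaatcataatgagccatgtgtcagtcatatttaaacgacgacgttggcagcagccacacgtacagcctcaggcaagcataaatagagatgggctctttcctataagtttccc
CYP81F2: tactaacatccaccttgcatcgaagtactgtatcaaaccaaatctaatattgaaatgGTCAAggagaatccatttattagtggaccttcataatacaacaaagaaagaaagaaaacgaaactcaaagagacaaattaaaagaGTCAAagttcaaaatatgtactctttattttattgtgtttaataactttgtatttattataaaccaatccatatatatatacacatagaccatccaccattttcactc
SUR1: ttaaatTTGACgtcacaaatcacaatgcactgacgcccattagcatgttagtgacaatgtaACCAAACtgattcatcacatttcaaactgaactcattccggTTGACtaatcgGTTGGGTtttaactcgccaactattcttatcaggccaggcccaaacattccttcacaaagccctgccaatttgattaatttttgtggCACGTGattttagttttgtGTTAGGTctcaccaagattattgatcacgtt
The W-box core occurred 2 times in each of these windows and in that of *CYP71A13*, and in no window of the other 6 genes. Of 27443 windows of protein-coding genes 44.9% hold at least 1 such core, against 4 of these 10. The *SUR1* window also holds the G-box, 50 to 45 bases before the gene start, and 3 AC elements. These motifs are in 6.49% and 14.5% of all windows and in no other window of the 10. A match is a run of letters and not a measured site.

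The windows of *CYP79B2* (chr4:18524792-18525041, plus strand) and *CYP79B3* (chr2:9488163-9488412, plus strand) hold none of the 3 motifs, and here the capitals mark the runs that both share.
CYP79B2: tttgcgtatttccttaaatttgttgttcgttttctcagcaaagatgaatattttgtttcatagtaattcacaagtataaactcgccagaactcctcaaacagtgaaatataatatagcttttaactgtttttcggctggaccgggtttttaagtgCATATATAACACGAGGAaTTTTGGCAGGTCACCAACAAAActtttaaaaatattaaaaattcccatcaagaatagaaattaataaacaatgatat
CYP79B3: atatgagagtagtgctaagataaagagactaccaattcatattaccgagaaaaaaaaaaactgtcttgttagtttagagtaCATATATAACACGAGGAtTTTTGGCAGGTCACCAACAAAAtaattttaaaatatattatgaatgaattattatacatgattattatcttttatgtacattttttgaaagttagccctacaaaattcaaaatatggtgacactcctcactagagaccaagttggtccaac
The shared runs are 17 and 22 bases long and stand 1 base apart in both genes. They start 95 and 77 bases before the gene start of *CYP79B2*, and 169 and 151 bases before that of *CYP79B3*. Each run was found in 2 of the 27443 windows, those of this gene pair. Among the other 44 pairs of the 10 genes the longest shared run had 7 to 13 bases, with a median of 9.

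Of the regulators, *MYB51* and *MYB34* stood higher in *ldl1 ldl2* than in WT within both replicate numbers, whereas *MYB122* was at or near 0 throughout. *MYB51* (AT1G18570), on chromosome 1 (6389399 to 6391386, TAIR10.1), is the main activator of indole glucosinolate synthesis in shoots. Its FPKM were 10.6 and 13.4 in WT and 27.9 and 23.7 in *ldl1 ldl2*, means of 12.0 ± 1.92 and 25.8 ± 3.02 (SD, n = 2). Both mutant libraries stood above both WT libraries. The log2 ratio of FPKM + 1 was 1.31 in replicate 1 and 0.78 in replicate 2, and limma gave a log2 fold change of 1.05 with a standard error of 0.28 and a 95% confidence interval of 0.29 to 1.80. The unadjusted p was 0.0175 and the adjusted p over all genes tested was 1.00 by limma, so *MYB51* did not pass the test.

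*MYB34* (AT5G60890, chromosome 5, 24494291 to 24496371) acts on the same genes, mainly in roots. It was measured at 3.38 and 5.30 FPKM in WT and at 6.60 and 10.6 FPKM in *ldl1 ldl2*. The mutant libraries again stood above both WT libraries, and the replicate 2 library was the higher one in each genotype. The log2 ratios were 0.79 and 0.88, and the limma log2 fold change was 0.84 ± 0.37 (SE; 95% interval -0.15 to 1.83; adjusted p = 1.00). *MYB122* (AT1G74080, chromosome 1, 27855578 to 27857598), which adds to the other regulators after induction, was listed at 0 in both replicate 1 libraries and at 0.0548 and 0.0532 FPKM in the replicate 2 libraries of WT and *ldl1 ldl2*. Coding sequences of *MYB51* and *MYB122* are 67.7% identical with a longest shared run of 19 bases, shorter than the 100-base reads, so no read within the coding sequence could match both in full.

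**Figure D1:**
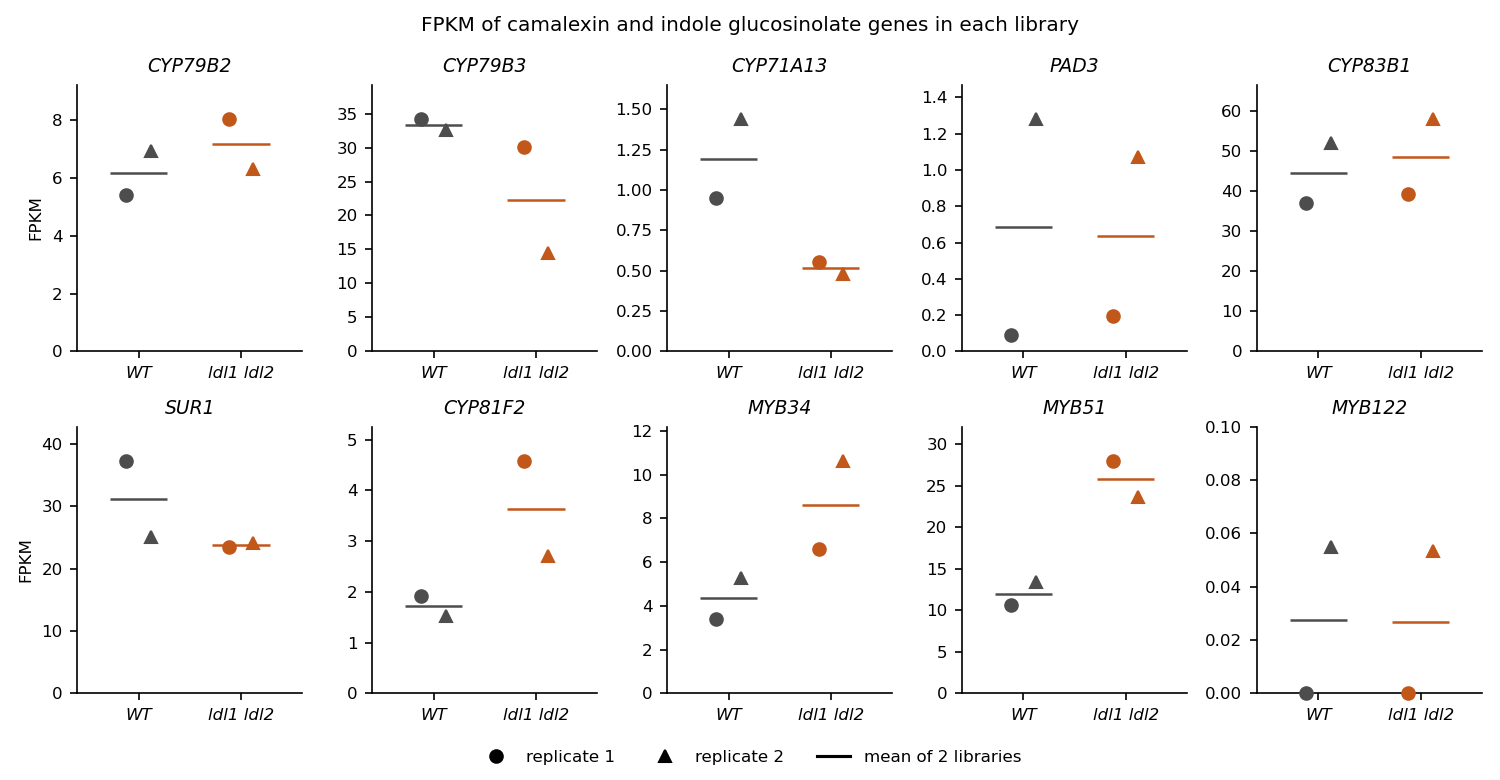
FPKM of the 10 genes, one panel per gene with its own linear axis from 0, grouped by genotype. Points are single libraries, with the replicate number given by the symbol, and horizontal lines are genotype means (n = 2). *MYB51*, *MYB34* and *CYP81F2* have both mutant points above both WT points, and *CYP79B3* has a single low point, *ldl1 ldl2* replicate 2 at 14.4 FPKM.

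Of the entry enzymes, *CYP79B3* had both mutant libraries below both WT libraries, and *CYP79B2* had no common direction. *CYP79B3* (AT2G22330, chromosome 2, 9488413 to 9491404) was at 34.2 and 32.6 FPKM in WT and at 30.02 and 14.4 FPKM in *ldl1 ldl2*. Of the mutant libraries, *ldl1 ldl2* replicate 1 was close to WT and the low value was that of replicate 2. The log2 ratios were -0.18 and -1.12, and the limma log2 fold change was -0.65 ± 0.42 (SE; 95% interval -1.79 to 0.49; adjusted p = 1.00). Leaving out *ldl1 ldl2* replicate 2 took this value to -0.15.

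*CYP79B2* (AT4G39950, chromosome 4, 18525042 to 18527602) was at 5.42 and 6.94 FPKM in WT and at 8.03 and 6.33 FPKM in *ldl1 ldl2*. The genotypes overlapped, with a log2 ratio of 0.49 in replicate 1 and -0.12 in replicate 2. The limma log2 fold change was 0.19 ± 0.29 (SE; 95% interval -0.58 to 0.96; adjusted p = 1.00). Together the 2 genes amounted to 39.6 FPKM in each WT library, 38.1 in *ldl1 ldl2* replicate 1 and 20.8 in *ldl1 ldl2* replicate 2. The level of *CYP79B2* relative to *CYP79B3* was 0.159 and 0.213 in WT and 0.268 and 0.438 in *ldl1 ldl2*. Both mutant ratios were above both WT ratios, and how many other gene pairs do so was not counted. The highest ratio, 0.438, came from *ldl1 ldl2* replicate 2, where *CYP79B3* was low at 14.4 FPKM. The coding sequences are 78.1% identical, with a longest shared run of 32 bases.

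Along the indole glucosinolate branch, *CYP81F2* was higher in the mutant, *SUR1* was lower and *CYP83B1* differed little. *CYP81F2* (AT5G57220, chromosome 5, 23187840 to 23189902) hydroxylates the indole ring of the finished glucosinolate, a step toward the compound used in defense against fungi. It was at 1.91 and 1.52 FPKM in WT and 4.57 and 2.71 FPKM in *ldl1 ldl2*. All mutant values lay above the WT values, and the log2 ratios were 0.94 and 0.56. The limma log2 fold change was 0.75 ± 0.34 (SE; 95% interval -0.15 to 1.65; adjusted p = 1.00).

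*SUR1* (AT2G20610, chromosome 2, 8877887 to 8880440), which serves the aliphatic glucosinolates too, was at 37.2 and 25.03 FPKM in WT and at 23.4 and 24.1 FPKM in *ldl1 ldl2*. Only WT replicate 1 stood apart; the other 3 libraries lay between 23.4 and 25.03. The log2 ratios were -0.65 and -0.05, with a limma log2 fold change of -0.35 ± 0.32 (SE; 95% interval -1.20 to 0.50; adjusted p = 1.00). Leaving out WT replicate 1 took it to -0.07. *CYP83B1* (AT4G31500, chromosome 4, 15273410 to 15275404) was at 36.9 and 52.0 FPKM in WT and 39.2 and 57.8 FPKM in *ldl1 ldl2*. Its values went with the replicate number rather than the genotype, replicate 2 being above replicate 1 by a log2 ratio of 0.48 in WT and 0.55 in the mutant. Between genotypes the log2 ratios were 0.09 and 0.15, and the limma log2 fold change of 0.12 ± 0.36 (SE; 95% interval -0.84 to 1.08; adjusted p = 1.00) turned negative when WT replicate 1 was left out (-0.12) and when *ldl1 ldl2* replicate 2 was (-0.16).

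The camalexin branch was at a low level in these uninfected leaves, and neither of its genes reached the mean of 1 FPKM set for testing. *PAD3* (AT3G26830, chromosome 3, 9887917 to 9889791) was at 0.0887 and 1.28 FPKM in WT and at 0.197 and 1.07 FPKM in *ldl1 ldl2*. Both replicate 2 libraries stood above both replicate 1 libraries, and within a replicate number the log2 ratios of genotype were 0.14 and -0.14. *CYP71A13* (AT2G30770, chromosome 2, 13109909 to 13111988) was at 0.950 and 1.44 FPKM in WT and 0.552 and 0.480 FPKM in *ldl1 ldl2*, log2 ratios of -0.33 and -0.72, with both mutant libraries below both WT libraries. Its gene model overlaps AT2G30766 on the opposite strand. Replicate 1 had that gene at 39.8 FPKM in the mutant against 56.5 in WT, and replicate 2 at 7.69 against 19.8. AT2G30766 was thus lower in the mutant within both replicate numbers, as *CYP71A13* was. Between the WT libraries the genes went opposite ways, and between the mutant libraries both were lower in replicate 2. Whether reads of AT2G30766 add to the *CYP71A13* difference was not tested. The libraries were stranded, but whether strand was used in estimating FPKM is not stated, so the *CYP71A13* values are uncertain. Its coding sequence is 90.4% identical to that of *CYP71A12*, with a longest shared run of 59 bases, and *CYP71A12* was at 0.193 to 0.349 FPKM.

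**Figure D2:**
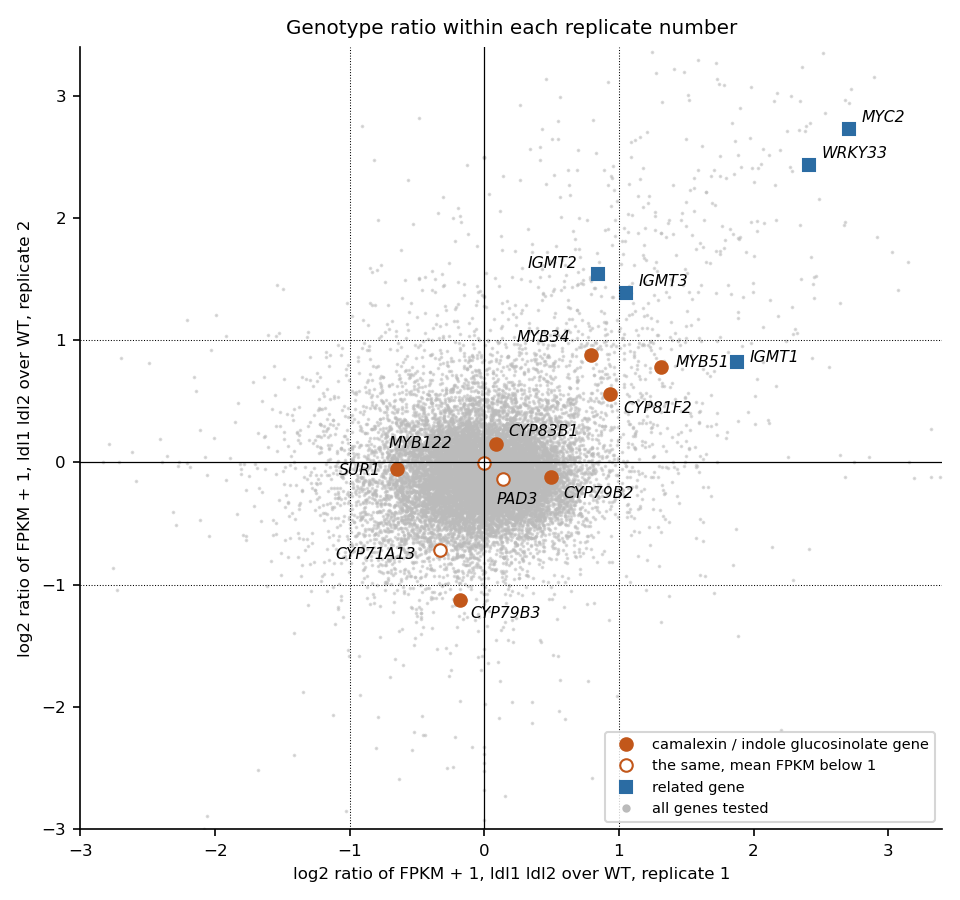
Log2 ratio of FPKM + 1, *ldl1 ldl2* over WT, in replicate 1 (horizontal) and replicate 2 (vertical) for all 16905 genes tested (grey, with 74 outside the axes), the 10 genes (circles, open where the mean is below 1 FPKM) and 5 related genes (squares). Dotted lines mark 2-fold. *MYB51*, *MYB34* and *CYP81F2* lie to the upper right of the centre and below 2-fold in at least 1 replicate, and *WRKY33* and *MYC2* lie beyond 2-fold in both.

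Of the 10 genes, 7 passed the minimum and 3 (*CYP71A13*, *PAD3* and *MYB122*) did not. Within both replicate numbers 4 of the 7 were higher in *ldl1 ldl2* (*CYP83B1*, *CYP81F2*, *MYB34* and *MYB51*), as were 19.8% of all genes tested. *CYP79B3* and *SUR1* were lower in both, as were 31.0% of all genes, and *CYP79B2* went opposite ways, as did 48.8%. None of the 7 reached 2-fold in both replicates, either upward (1.40% of all genes) or downward (0.148%). *MYB34* and *MYB51* reached 1.5-fold upward in both (2.88% of all genes), and no gene of the 7 did so downward (1.49%). These folds are of FPKM + 1, which understates changes of low genes such as *CYP81F2*. With 0.1 added in place of 1, the log2 ratios of *CYP81F2* were 1.22 and 0.79. The mutant libraries stood above both WT libraries for 3 of the 7, against 8.25% of all genes, and below both for 2 of the 7, against 13.3%. The median log2 ratio of the 7 genes was 0.49 in replicate 1 and 0.15 in replicate 2, beside 0.01 and -0.10 for all genes tested. With limma, 0 of the 7 and 0 of all 16905 genes passed an adjusted p of 0.05 (0% called), while 1 of the 7 (*MYB51*) and 394 of all genes (2.33%) had an unadjusted p under 0.05. An exact permutation test of 2 libraries against 2 cannot give a two-sided p below 0.333.

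Levels spanned a wide range. *CYP83B1* was the highest, with a mean over the 4 libraries of 46.5 FPKM, followed by *CYP79B3* at 27.8, *SUR1* at 27.4, *MYB51* at 18.9, *CYP79B2* at 6.68, *MYB34* at 6.47, *CYP81F2* at 2.68, *CYP71A13* at 0.855, *PAD3* at 0.659 and *MYB122* at 0.0270. *CYP83B1* was above 91.1% of all loci, and *MYB51*, a transcription factor, was above 81.1%. These shares are over all 32633 loci, of which 11388 to 12113 were at 0 in a given library, and not over the 16905 tested. Over the 4 libraries, the ranges of neighbours in this order did not overlap between *CYP83B1* and *CYP79B3*, *MYB51* and *CYP79B2*, *CYP81F2* and *CYP71A13*, and *PAD3* and *MYB122*. The ranges of the other neighbours overlapped.

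For some of these genes the libraries of 1 genotype differed by as much as the genotypes did. On log2(FPKM + 1), *PAD3* had the largest ratio of replicate 2 over replicate 1 that went the same way in both genotypes. It was 1.07 in WT and 0.79 in *ldl1 ldl2*. The added 1 understates this difference, as *PAD3* was at 0.0887 and 0.197 FPKM in the replicate 1 libraries. *MYB34* (0.52 and 0.61) and *CYP83B1* (0.48 and 0.55) were also higher in replicate 2 in both genotypes. *MYB51* (0.30 and -0.23), *CYP79B2* (0.31 and -0.30) and *SUR1* (-0.55 and 0.04) went opposite ways. For *CYP81F2* replicate 2 was the lower one in both genotypes (-0.21 and -0.59), and for *CYP79B3* the ratio was -0.06 in WT and -1.01 in the mutant. None of the 7 genes tested differed 2-fold between replicate numbers in the same direction in both genotypes, with replicate 2 above (5.02% of all genes) or below (4.34%).

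**Figure D3:**
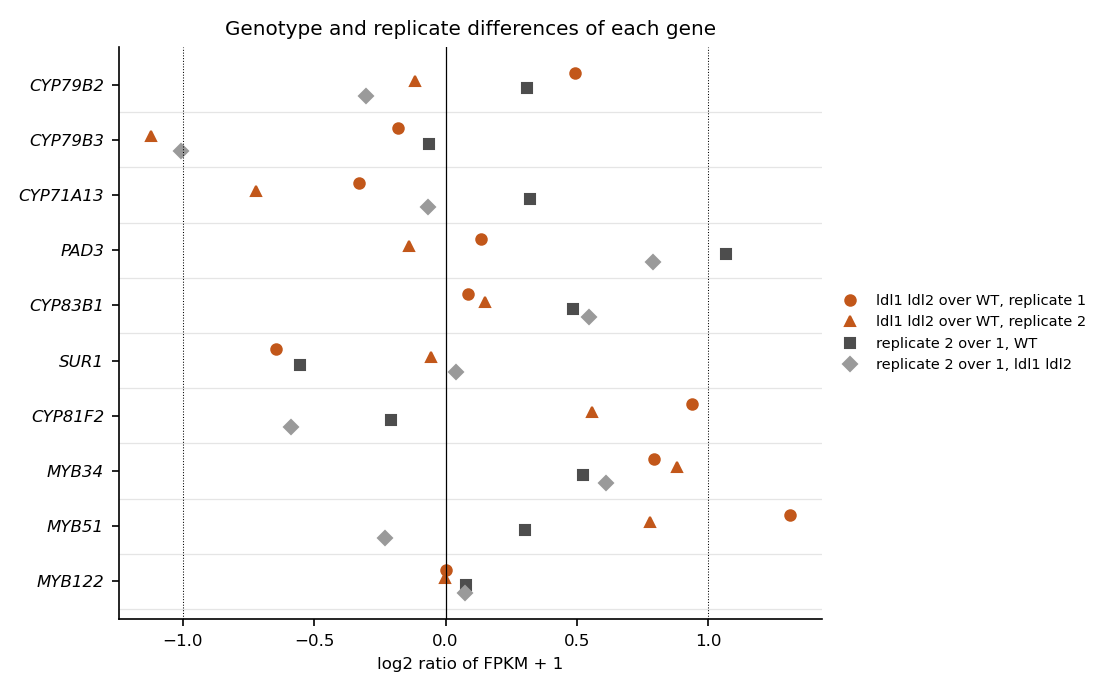
Log2 ratios of FPKM + 1 for each of the 10 genes, between genotypes within each replicate number and between replicate numbers within each genotype, with 1 symbol per ratio. The genotype ratios of *MYB51*, *MYB34* and *CYP81F2* are all above 0, as are the smaller ones of *CYP83B1* (0.09 and 0.15). The replicate ratios of *MYB34*, *CYP83B1* and *PAD3* are all above 0, as are the small ones of *MYB122* (0.08 and 0.07).

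Genes around these 10 were taken from 6 lists with 46 genes, and none of those tested passed limma over all genes, fitted without a replicate block. Among 6 tested of 8 indole glucosinolate modification genes, 4 were higher in *ldl1 ldl2* within both replicates, none was lower in both, and 2 went opposite ways, beside 19.8%, 31.0% and 48.8% of all genes tested, which are also the shares to read the counts of the other lists against. The median mean log2 ratio was 0.77, beside -0.04 for all genes. *IGMT3* is one of the methyltransferases that act after CYP81F2. It was at 0.577 and 1.31 FPKM in WT and at 2.28 and 5.05 FPKM in the mutant, log2 ratios of 1.06 and 1.39. Its WT mean of 0.942 FPKM was below 1, so it reached the minimum, and these counts, through its mutant values. *IGMT1* was at 2.39 and 9.19 against 11.5 and 17.03 FPKM, ratios of 1.88 and 0.82. For both genes the mutant libraries lay above both WT libraries. *IGMT4*, at a much higher level, was at 124 and 310 FPKM in WT and at 204 and 301 FPKM in the mutant. Its log2 ratios were 0.71 and -0.04, and its genotypes overlapped. *IGMT1* to *IGMT4* lie next to each other and share runs of up to 263 bases, longer than a read, so how their reads were divided is uncertain.

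The list of other regulators held 8 tested genes, with 4 higher and 2 lower in both replicates and a median mean log2 ratio of 0.19. *WRKY33*, the activator of *PAD3* and *CYP71A13* after infection, was at 10.3 and 14.6 FPKM in WT and at 58.9 and 83.3 FPKM in *ldl1 ldl2*, log2 ratios of 2.41 and 2.44. *MYC2*, a jasmonate factor that acts on glucosinolate genes together with the MYB factors, was at 5.92 and 19.2 against 44.3 and 133 FPKM, ratios of 2.71 and 2.73. Both stood higher in the mutant libraries than in either WT library, with limma log2 fold changes of 2.42 ± 0.34 and 2.72 ± 0.78 (SE) and an adjusted p of 1.00 each. *MPK3*, a kinase upstream of WRKY33, had log2 ratios of 0.72 and 0.97. *MYC3* (-0.05 and -0.29) and *MYC4* (-0.31 and -0.10) were lower in both replicates.

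Supply and later steps were covered by the remaining lists. Of 8 tryptophan synthesis genes, 1 was higher and 4 were lower within both replicates (19.8% and 31.0% of all genes tested), with a median mean log2 ratio of -0.17. Of these 4, *ASB1* hardly differed, with log2 ratios of -0.02 and -0.005. *IGPS*, which closes the indole ring, was at 14.7 and 18.2 FPKM in WT and 10.8 and 14.6 in the mutant, and *PAI1*, an earlier step, had ratios of -0.38 and -0.58. Of 7 genes for core steps shared by glucosinolates, 1 was higher, 2 were lower and 4 went opposite ways, with a median of -0.31. *APK2*, a kinase of sulfate activation, was at 53.2 and 18.9 FPKM in WT and 23.5 and 14.8 FPKM in the mutant, and the glutathione transferase *GSTF9* at 392 and 1011 against 148 and 890 FPKM. For both, WT and mutant libraries overlapped. Of 8 tested breakdown and transport genes, 1 was higher and 3 were lower in both replicates (median 0.13). The transporter genes *PEN3* (log2 ratios 1.58 and -0.02) and *GTR1* (-0.22 and 1.81) each had a single low library, WT replicate 1 for *PEN3* and WT replicate 2 for *GTR1*. In the camalexin and indole carbonyl branch 2 of 5 genes reached the minimum: *GSTF6*, a glutathione transferase of camalexin synthesis, was at 30.4 and 28.9 FPKM in WT and at 47.5 and 50.9 FPKM in *ldl1 ldl2*, ratios of 0.63 and 0.80, and *CYP71B6* had ratios of opposite sign.

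**Figure D4:**
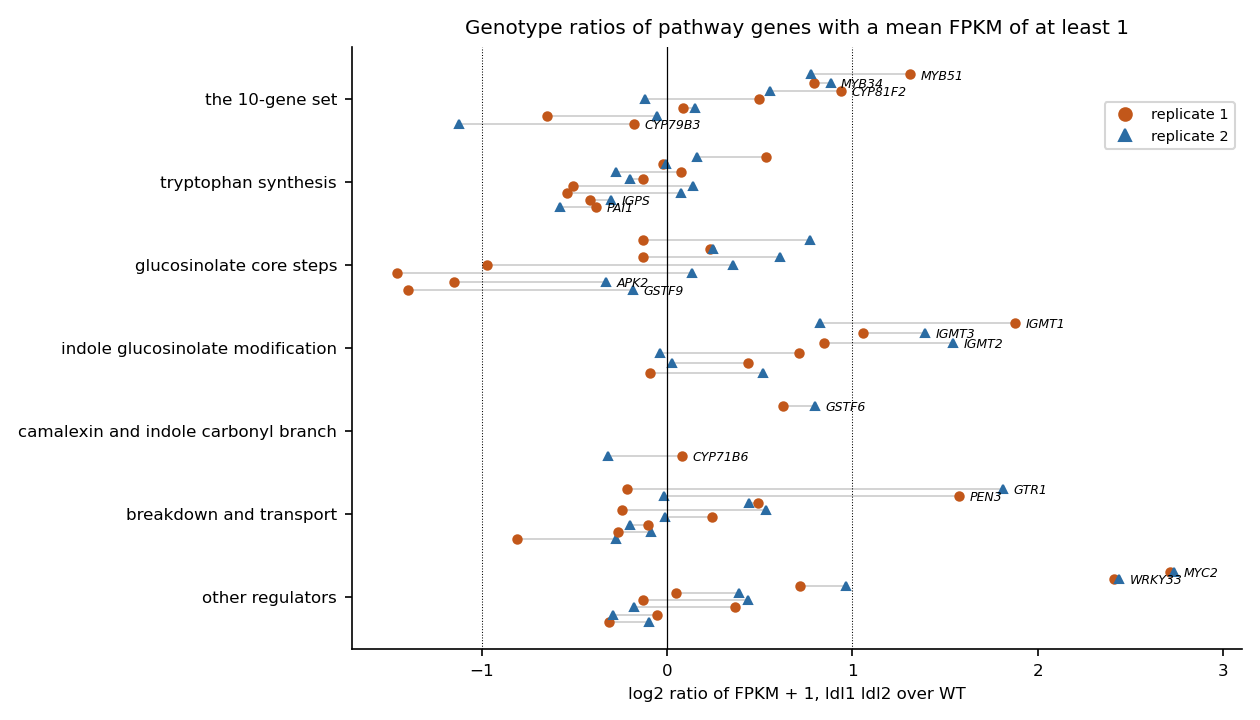
Log2 ratios of FPKM + 1, *ldl1 ldl2* over WT, for the 7 tested genes and the tested genes of the 6 related lists, with 1 point for each gene and replicate number. *WRKY33* and *MYC2* stand furthest to the right, at 2.41 to 2.73 in both replicates, and most other points lie within 2-fold.

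The profiles over the 4 libraries that were most like those of *CYP79B2* and *PAD3* were found by the Euclidean distance of centred log2(FPKM + 1) values among the 16905 genes tested. For *CYP79B2* they were AT3G05170 (distance 0.0145), *LINC3* (0.0242) and *RABA2b* (0.0293), which, like it, were highest in *ldl1 ldl2* replicate 1 and lowest in WT replicate 1. For *PAD3* they were *BZIP9* (0.0157), AT1G75090 (0.0297) and AT4G33540 (0.0323), all higher in the replicate 2 libraries. *PAD3* was below the minimum, so the added 1 weighs heavily on its profile. From replicate 1 to 2 in WT, *PAD3* went from 0.0887 to 1.28 FPKM and *BZIP9* from 51.6 to 109 FPKM. In *ldl1 ldl2* they went from 0.197 to 1.07 and from 56.0 to 98.5 FPKM. With 4 libraries, such distances describe these profiles only.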

How the data were processed

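Leaf mRNA from 2 WT and 2 *ldl1 ldl2* samples was sequenced as 100-base paired-end reads of stranded libraries. The authors aligned reads with TopHat2 and Bowtie2 and estimated FPKM per library with Cufflinks on TAIR10 gene models, and the deposited tables hold these FPKM values. The submitters' processing notes also name Trimmomatic 0.33. Tool versions other than this, and whether strand was used for FPKM, were not given in the sources used here. As FPKM are not counts, read depth and counting error are unknown.

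Genotypes were compared on log2(FPKM + 1), which understates changes of low genes, without rescaling, for 16905 loci with a mean of at least 1 FPKM. limma 3.58.1 (R 4.3.3; trend, two-sided, Benjamini-Hochberg at 0.05, no replicate block) gave fold changes, and ratios were also taken within each replicate number. The methods call the samples biological replicates and say no more of their source. The limma fit was run on simulated data with known fold changes. That check required only that mean estimates lie near the known values, so it does not bear on the adjusted p values. The 10 genes and the related lists were chosen with earlier results of these data known. Named besides them were the genes of each related list at least 2-fold changed in both replicates, then those with the largest mean ratio until 2 were named, any of the other regulators, and 3 nearest profiles each for *CYP79B2* and *PAD3*. Exceptions chosen after their values were seen are *CYP71A12*, AT2G30766, and the genes *IGMT2*, *IGMT4*, *ASB1* and *GSTU13*. Positions and sequences came from RefSeq TAIR10.1 by locus tag (31893 loci matched). Alternatives were a pseudocount of 0.1, no minimum, upper-quartile scaling, no trend, a fold of 1.5, a replicate block, and leaving out each library.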

Additional observations from a re-analysis of the deposited data

How the results depend on the processing

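Over all genes, limma called 0 genes with a pseudocount of 0.1, upper-quartile scaling or no trend, 23 (all lower) without the minimum, and 0 to 3 when 1 library was left out (3 without *ldl1 ldl2* replicate 1 and 3 without *ldl1 ldl2* replicate 2). None of the 7 tested genes passed under any of these, nor did any of the 10 without the minimum. At a fold of 1.5 in place of 2, the share of all genes higher in both replicates went from 1.40% to 2.88%. The count went from 0 to 2 of the 7, and from 0 to 1 of 2 tested in the camalexin and indole carbonyl branch. Among 6 tested indole glucosinolate modification genes it went from 1 to 3 (*IGMT1*, *IGMT2* and *IGMT3*), and to 2 with a pseudocount of 0.1. How reads were divided among these methyltransferase genes is uncertain, and *IGMT3* reached the minimum through its mutant values. The share of all genes with a pseudocount of 0.1 was not counted. Leaving out libraries, chosen after seeing the data, put 3 to 5 of the 7 above WT, where 19.0% to 40.5% of all genes then stood, and 5 of them without WT replicate 2 (40.5%), where flower markers were highest. It put 2 of the 7 below WT each time, beside 25.5% to 49.9% of all genes. These counts cannot fall when a library is left out. *CYP83B1* changed sign (-0.12 without WT replicate 1, -0.16 without *ldl1 ldl2* replicate 2; range -0.16 to 0.39). The log2 fold change of *MYB51* ranged from 0.89 to 1.197, of *MYB34* from 0.53 to 1.14, of *CYP81F2* from 0.45 to 1.04, of *CYP79B3* from -1.16 to -0.15, of *SUR1* from -0.63 to -0.07, and of *CYP79B2* from 0.03 to 0.34. The cause of these moves was not tested. No direction of the 7 genes changed with upper-quartile scaling. In the related lists it turned the replicate 2 log2 ratios of *ASB1* (0.03), *PEN3* (0.02) and *GSTU13* (0.03) from negative to positive. This changes the counts of higher or lower genes in the lists that hold them.

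Replicate numbers are only numbers in the labels, with 2 pairs. The replicate 2 minus replicate 1 differences of the genotypes correlated across 16905 genes at r = 0.73, which are not independent. With a replicate block limma called 348 genes, 311 higher and 37 lower, none of them among the 10 genes, with adjusted p of 0.0531 for *MYB51*, 0.124 for *MYB34* and 0.252 for *CYP81F2*. Under the block *WRKY33* (adjusted p = 1.47e-04), *MYC2* (7.15e-05), *IGMT1* (0.0235), *IGMT3* (0.0332) and *IGMT2* (0.0365) passed.

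With 2 libraries per genotype and no counts, precision is limited for *CYP71A13*, *PAD3* and *MYB122*, and low values cannot be separated from counting noise.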

Other observations

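The following genes of the related lists were chosen after their values were seen. *APK1*, the second kinase of sulfate activation, was at 79.04 FPKM in WT replicate 1 and at 28.1 to 31.6 in the other 3 libraries, and *GGP1*, which trims the glutathione conjugate in glucosinolate synthesis, was at 201 FPKM there and at 61.3 to 102 elsewhere. *IGMT5*, a methyltransferase of indole glucosinolates, followed the replicate number, at 0.409 and 0.323 FPKM in the replicate 1 libraries of WT and *ldl1 ldl2* and at 13.999 and 20.4 FPKM in the replicate 2 libraries. *PEN2*, the myrosinase that breaks down indole glucosinolates in defense, was at 73.2 and 76.7 FPKM in WT and at 103 and 104 FPKM in *ldl1 ldl2*. The mutant libraries thus stood above both WT libraries, as they did for 8.25% of all genes tested. Its log2 ratios were 0.49 and 0.44, and it did not pass limma.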
